A study of Arabidopsis thaliana with 20 samples.

Results

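Hypocotyl segments of the Arabidopsis thaliana mutant ckh2-1 and of the wild type (Ler) were cultured with and without the cytokinin kinetin, and the comparison described here was the difference between the 2 genotypes in their response to the high dose. The response of a genotype was the log2 signal at 200 ng/ml kinetin minus that at 0 ng/ml, and the response of wild type was subtracted from that of ckh2-1 within each replicate number. A positive difference is called a higher response in ckh2-1 and a negative one a lower response, so that a larger fall also counts as a lower response. The comparison used 8 of the 20 arrays of the series, 2 in each of 4 groups: ckh2-1 at 200 ng/ml, ckh2-1 at 0 ng/ml, wild type at 200 ng/ml and wild type at 0 ng/ml. In every group the medium also held the auxin 2,4-D at 100 ng/ml, the culture lasted 3 days under continuous light, and the explants came from seedlings that were 10 days old and had been raised in dim light. The mutant was represented by the allele ckh2-1 alone. The series also holds arrays at 25 ng/ml kinetin, arrays of the mutant ckh1-1 and arrays of wild type treated with trichostatin A, and those at 25 ng/ml and of ckh1-1 are used below where they bear on the same genes. Whether the 2 replicates of a group were separate cultures is not given in the labels, so the p-values rest on array-to-array spread that may be technical. The series title asks how CKH1 and CKH2 affect cytokinin responses in tissue culture.

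Cytokinins are sensed by membrane histidine kinases, which send phosphate groups through shuttle proteins to response regulators in the nucleus. Type-B response regulators then switch on target genes, among them those of the type-A response regulators, which dampen the pathway. In plant tissue culture the balance of cytokinin and auxin steers explants toward callus, roots or shoots. CKH2 is listed in the gene names table as another name of PKL (PICKLE), which encodes a chromatin remodelling protein of the CHD3 type that is known for keeping embryonic genes silent after germination. No probe set in the array's name table carries PKL, so the transcript of the mutated gene itself was not analysed here.

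Of 22746 probe sets, each a group of short probes for a transcript, 15469 passed the filter on dim signals and were tested. Median signals of the 8 arrays ran from 101 to 137 and summed signals from 6868300 to 9331124, and the correlation between the arrays of a group, over probe sets, was 0.964 to 0.981. The wild type response was smaller in replicate number 2 than in replicate number 1. In ckh2-1, 648 probe sets in number 1 and 648 in number 2 lay more than 1 log2 unit higher at 200 than at 0 ng/ml, and 692 and 729 lay more than 1 lower. In wild type these counts were 582 in number 1 and 345 in number 2 for higher, and 616 and 375 for lower. Of the markers for guard cells, FMA had signals of 14.2 to 30.8 on the 8 arrays, and SPCH and MUTE did not exceed 7.23. The name table gave no probe set for the epidermis, endodermis and phloem marker lists. RCA, which encodes the activase of the carbon-fixing enzyme Rubisco and served as the green tissue marker, had signals of 1302 and 1058 in ckh2-1 at 200 ng/ml and 632 and 559 at 0 ng/ml, against 937 and 473 in wild type at 200 ng/ml and 339 and 376 at 0 ng/ml. Its difference in response was 0.10 (95% interval from -0.54 to 0.73, adjusted p = 0.94).

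The response to 200 ng/ml kinetin differed between ckh2-1 and wild type for 269 of 15469 probe sets, or 1.74%, at an adjusted p below 0.05 (limma, Benjamini-Hochberg). It was lower in ckh2-1 for 178 probe sets (1.15%) and higher for 91 (0.588%). The size ran from -3.67 to 2.99 on the log2 scale, and of the 58 differences beyond 2 log2 units 52 were lower and 6 higher. Within the mutant limma called 3847 probe sets (24.9%) changed by kinetin, and within wild type 1764 (11.4%). Each of the 269 had the same sign of the difference in both replicate numbers, as had 57.8% of all probe sets tested. A call favours probe sets whose 2 values agree, so this count describes the list and is no test of replication. Across all probe sets the difference correlated between the 2 replicate numbers with r = 0.395, and probe sets are not independent replicates.

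The size of this list depended on single arrays of both genotypes and on the fit. Omitting a single array gave its lowest total, 103, for the ckh2-1 array of number 2 at 0 ng/ml, and 124 for the ckh2-1 array of number 1 at 200 ng/ml. Omitting a wild type array of number 2 gave 126 at 0 ng/ml and 135 at 200 ng/ml. The 8 arrays of the comparison alone gave 184. Without both wild type arrays of number 2 45 probe sets were called, 13 higher and 32 lower, and without both wild type arrays of number 1 281 were called, 93 higher and 188 lower. Without the replicate number in the fit 56 were called, 7 higher and 49 lower, and each of the 56 was among the 269. Trimmed means were 310.9 in number 1 and 236.9 in number 2, and this fit left that offset in the spread, here and wherever it is cited below. With arrays rescaled to a common trimmed mean, the fit without the replicate number called 206, 67 higher and 139 lower, and 200 of them were among the 269. The name table gives 1 gene for 120 of the 269, several for 5 and no gene for 144, and 25 have a gene symbol. Genes known only by a locus tag are given by it here, with no statement of their role. In such tissue RNA, fewer cells of a type and less RNA per cell cannot be told apart.

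**Figure D1:**
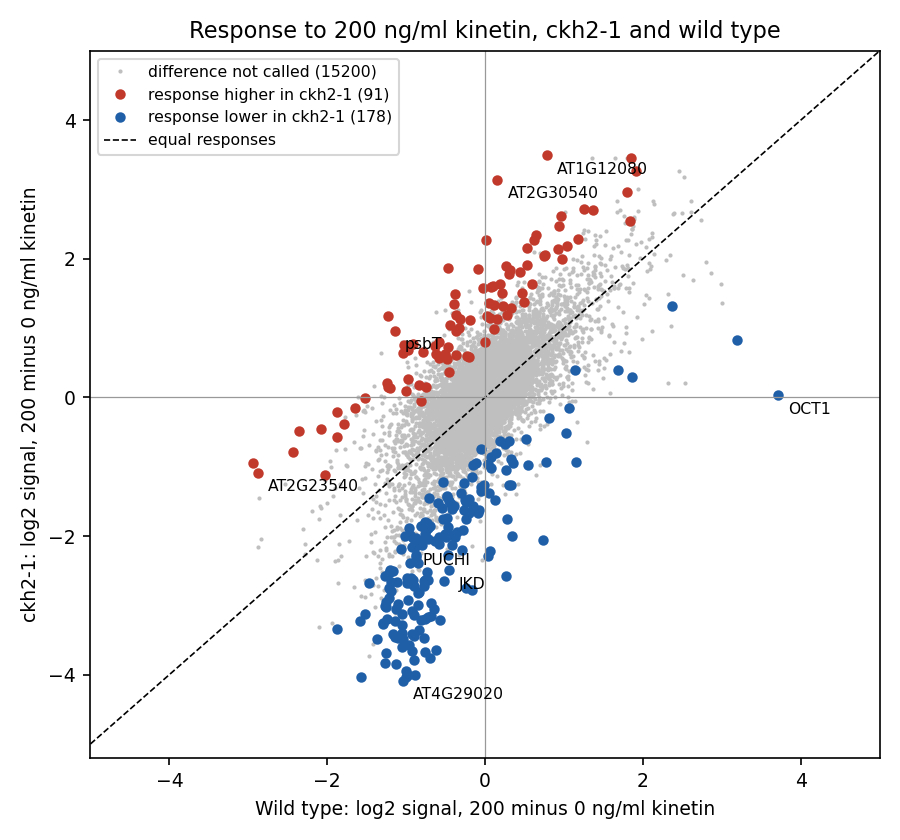
Response to 200 ng/ml kinetin of each tested probe set in ckh2-1 (vertical axis) against wild type (horizontal axis), both as log2 signal at 200 minus 0 ng/ml, as means of 2 arrays per group. The 178 probe sets with a lower response in ckh2-1 lie below the dashed line of equal responses, mostly where the mutant value is under 0, and the 91 with a higher response lie above it.

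Among the 178 probe sets with a lower response in ckh2-1, 169 fell in the mutant, 3 rose and 6 were not called there, where 13.2% of all probe sets tested fell. In wild type 87 of them fell, 80 were not called and 11 rose, where 5.75% of all fell. The largest classes were thus a fall in both genotypes that was deeper in ckh2-1 (87 probe sets) and a fall in ckh2-1 with no call in wild type (80 probe sets). The median response of the 178 was -2.16 in ckh2-1 and -0.72 in wild type, against -0.03 and -0.04 over all probe sets. At 0 ng/ml 140 of the 178 were not called between ckh2-1 and wild type, 29 were higher in ckh2-1, where 3.1% of all were, and 9 were lower, where 4.76% of all were. In all 7.85% of probe sets were called there. At 200 ng/ml 159 were lower in ckh2-1, 19 were not called and 0 were higher, where 6.79% of all were lower and 13.4% called. Since these same arrays chose the probe sets, such counts describe the list and test nothing.

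**Figure D2:**
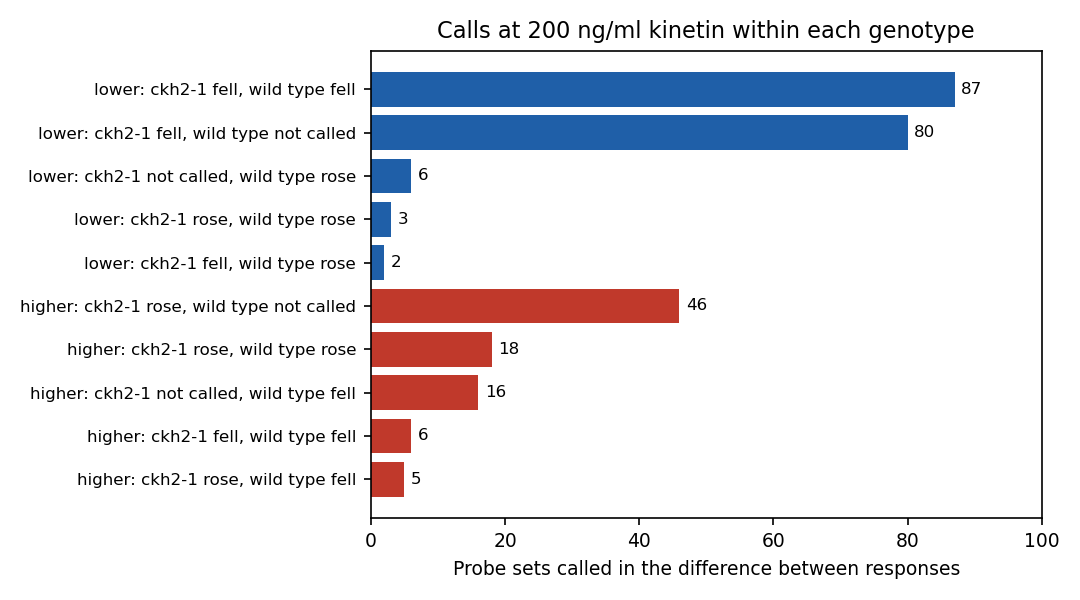
Number of probe sets with a lower (blue) or higher (red) kinetin response in ckh2-1, by what limma called within ckh2-1 and within wild type. A fall in both genotypes (87) and a fall in ckh2-1 with no call in wild type (80) are the longest bars, and a rise in ckh2-1 with no call in wild type (46) is the longest among the higher ones.

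AT4G29020 was called as fallen in both genotypes. It gave signals of 181 and 140 in ckh2-1 at 200 ng/ml and 3496 and 2822 at 0 ng/ml, against 2535 and 2779 in wild type at 200 ng/ml and 6374 and 4755 at 0 ng/ml. Both mutant arrays at 200 ng/ml lay far under all the others, and the groups did not overlap. It fell by 4.08 ± 0.20 in ckh2-1 and by 1.04 ± 0.20 in wild type (log2 ± SE), a difference of -3.04 ± 0.29 (adjusted p = 7.82e-05), and it was already lower in ckh2-1 at 0 ng/ml, by -0.80. iqd15, named as a member of the IQD family of calmodulin-binding proteins, had signals of 18.6 and 17.0 in ckh2-1 at 200 ng/ml and 327 and 340 at 0 ng/ml, against 191 and 187 in wild type at 200 ng/ml and 377 and 350 at 0 ng/ml. At 0 ng/ml the genotypes lay close together, and at 200 ng/ml the mutant was near the floor, that is with a group mean under 27.39, the amount added to each signal before the logarithm. Its difference was -2.14 ± 0.23 (adjusted p = 0.000205).

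The other genes of this class, called as fallen in both genotypes, differed by -1.23 to -2.73. AT1G48510 had signals of 18.1 and 13.4 in ckh2-1 at 200 ng/ml and 673 and 395 at 0 ng/ml, against 302 and 325 in wild type at 200 ng/ml and 770 and 496 at 0 ng/ml. It too was near the floor in the mutant at 200 ng/ml. AT5G48940 fell by 3.83 in ckh2-1 and by 1.26 in wild type, and AT1G73620 by 4.03 and by 1.57. SLY2 encodes an F-box protein of gibberellin signalling. Its signals were 67.4 and 59.7 in ckh2-1 at 200 ng/ml and 391 and 308 at 0 ng/ml, against 227 and 208 in wild type at 200 ng/ml and 365 and 389 at 0 ng/ml, and its difference was -1.32 ± 0.23 (adjusted p = 0.00687). The serine carboxypeptidase-like gene scpl25 stood close to the threshold with -1.28 ± 0.31 (adjusted p = 0.0484).

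In the class that fell in ckh2-1 with no call in wild type, AT4G17350 had signals of 59.7 and 62.5 in ckh2-1 at 200 ng/ml and 1185 and 1151 at 0 ng/ml. In wild type they were 427 and 391 at 200 ng/ml and 1025 and 452 at 0 ng/ml. The mutant groups were thus tight and far apart, and the wild type arrays without kinetin differed from each other by more than the others. The difference was -3.05 ± 0.39 (adjusted p = 0.0007). AT3G63240 had signals of 36.6 and 24.8 in ckh2-1 at 200 ng/ml and 555 and 459 at 0 ng/ml, against 214 and 218 in wild type at 200 ng/ml and 484 and 228 at 0 ng/ml, and a difference of -2.64 ± 0.32 (adjusted p = 0.000517). PDF2.5, a plant defensin gene, differed by -2.69 ± 0.54 (adjusted p = 0.016). Its signals were 35.9 and 47.0 in ckh2-1 at 200 ng/ml and 859 and 620 at 0 ng/ml, against 203 and 323 in wild type at 200 ng/ml and 674 and 309 at 0 ng/ml, where the wild type arrays overlapped between the doses. AT5G60520, AT1G56680, AT5G58750 and AT1G30760 differed by -2.79, -2.55, -2.49 and -2.44. Of these, AT5G58750 was near the floor in ckh2-1 at 200 ng/ml, with signals of 27.9 and 5.10.

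Transcription factor genes belonged to the same class. JKD (JACKDAW), a zinc finger factor of root ground tissue, had signals of 6.70 and 5.98 in ckh2-1 at 200 ng/ml and 146 and 181 at 0 ng/ml, against 90.2 and 126 in wild type at 200 ng/ml and 163 and 152 at 0 ng/ml. It thus lay near the floor on both mutant arrays at the high dose and above 90 on the other 6 arrays, with a difference of -2.03 ± 0.36 (adjusted p = 0.00707). SHI (SHORT INTERNODES), another zinc finger factor, had signals of 36.0 and 38.0 in ckh2-1 at 200 ng/ml and 241 and 300 at 0 ng/ml, against 149 and 148 in wild type at 200 ng/ml and 203 and 172 at 0 ng/ml. It fell by 2.20 ± 0.15 in ckh2-1, its wild type change was -0.29 ± 0.15, and the difference was -1.91 ± 0.22 (adjusted p = 0.000282). Further genes with a symbol here were the carboxylesterase CXE20 (-1.60), the kinases APK1A (-1.27) and NCRK (-1.23) and the U-box ubiquitin ligase PUB25 (-1.21). APK1A lay close to the threshold (adjusted p = 0.0471). Without kinetin CXE20 stood higher in ckh2-1, by 1.14 (adjusted p = 0.0003). JKD, SHI, iqd15 and the others that the naming rule did not pick were chosen because they carry a symbol, after their values were seen.

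OCT1, an organic cation transporter gene, had the lowest difference and a pattern of its own among the named genes. Its signals were 7.37 and 6.19 in ckh2-1 at 200 ng/ml and 10.2 and 2.37 at 0 ng/ml, against 1307 and 423 in wild type at 200 ng/ml and 86.7 and 3.56 at 0 ng/ml. The mutant stayed near the floor with and without kinetin, and the wild type arrays at 200 ng/ml lay above all the others. It rose by 3.71 ± 0.42 in wild type, changed by 0.03 ± 0.42 in ckh2-1, and differed by -3.67 ± 0.59 (adjusted p = 0.00428). That gives a direction and no firm size. The mutant values of OCT1 were near the floor, and its wild type arrays lay far apart at 0 and at 200 ng/ml. At 25 ng/ml the signals of OCT1 were 6.58 and 2.75 in ckh2-1 and 363 and 334 in wild type. In ckh1-1 it did not exceed 1.67 at 200 or 0 ng/ml.

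**Figure D3:**
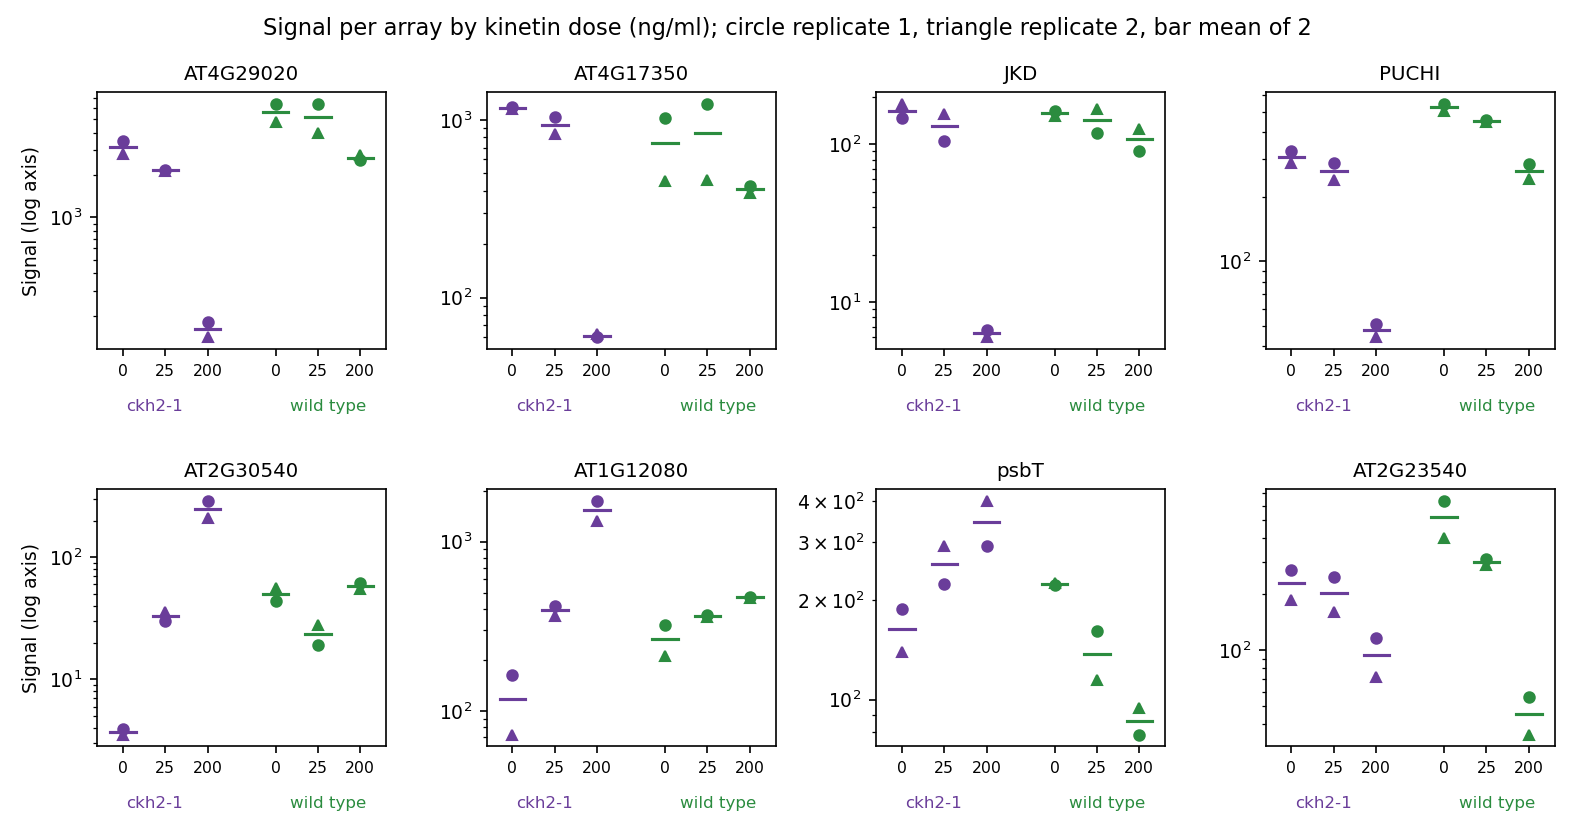
Signal of each array (log axis) at 0, 25 and 200 ng/ml kinetin in ckh2-1 (purple, left) and wild type (green, right) for 4 probe sets with a lower and 4 with a higher response in ckh2-1; circles are replicate 1, triangles replicate 2 and bars the mean of 2. AT4G29020, AT4G17350, JKD and PUCHI drop in ckh2-1 mainly between 25 and 200 ng/ml, and AT2G23540 falls in both genotypes from a lower start in ckh2-1.

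Of the 91 probe sets with a higher response in ckh2-1, 69 rose in the mutant, 16 were not called and 6 fell, where 11.7% of all probe sets tested rose. In wild type 46 were not called, 27 fell and 18 rose, where 5.65% of all rose. The largest class, with 46 probe sets, rose in ckh2-1 and was not called in wild type, 18 rose in both, 16 fell in wild type and were not called in ckh2-1, 6 fell in both and 5 rose in ckh2-1 and fell in wild type. The median response was 1.15 in ckh2-1 and -0.20 in wild type. Many of these probe sets differed in the cultures without kinetin: 49 of the 91 were lower in ckh2-1 at 0 ng/ml, where 4.76% of all were, 40 were not called and 2 were higher, where 3.1% of all were. At 200 ng/ml 53 were higher in ckh2-1, where 6.65% of all were, 33 were not called and 5 were lower. These shares, too, come from the arrays that chose the list.

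AT2G30540 had signals of 291 and 210 in ckh2-1 at 200 ng/ml and 3.94 and 3.54 at 0 ng/ml, against 62.1 and 54.9 in wild type at 200 ng/ml and 44.1 and 55.7 at 0 ng/ml. The mutant thus lay under wild type without kinetin, near the floor, and above it at the high dose, while the wild type arrays overlapped between doses. The difference was 2.99 ± 0.29 (adjusted p = 8.19e-05). AT2G30540 passed the filter on dim signals and the naming rule only through ckh2-1 at 200 ng/ml, so a high signal there was a condition of its being named. AT1G12080 had signals of 1746 and 1334 in ckh2-1 at 200 ng/ml and 162 and 72.4 at 0 ng/ml, against 473 and 464 in wild type at 200 ng/ml and 320 and 212 at 0 ng/ml. It rose in both genotypes, by 3.50 ± 0.18 in ckh2-1 and by 0.78 ± 0.18 in wild type, with a difference of 2.71 ± 0.26 (adjusted p = 7.82e-05). AT2G37870 also rose in both and differed by 1.66 ± 0.34 (adjusted p = 0.0188), with 0.87 in replicate number 1 and 2.46 in number 2.

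Enzyme genes were among those that rose in ckh2-1 with no call in wild type. GSTU20, a glutathione transferase gene of the tau class, had signals of 424 and 400 in ckh2-1 at 200 ng/ml and 155 and 52.5 at 0 ng/ml, against 396 and 320 in wild type at 200 ng/ml and 420 and 599 at 0 ng/ml. Its genotypes differed without kinetin (-2.13, adjusted p = 0.0017) and not detectably at 200 ng/ml (0.20, adjusted p = 0.79), and the difference in response was 2.33 ± 0.52 (adjusted p = 0.0321). BGLU47, a beta-glucosidase gene, had signals of 502 and 319 in ckh2-1 at 200 ng/ml and 81.0 and 37.9 at 0 ng/ml, against 81.7 and 63.7 in wild type at 200 ng/ml and 30.8 and 43.0 at 0 ng/ml. Here the mutant stood out at the high dose, with a difference of 1.71 ± 0.29 (adjusted p = 0.00654). AT1G16705 had signals of 169 and 160 in ckh2-1 at 200 ng/ml, none above 42.1 on the other 6 arrays, and a difference of 1.88 ± 0.34 (adjusted p = 0.00798). It passed the filter on dim signals and the naming rule only through that mutant group, so standing out there was a condition of its being named. In wild type it was near the floor at both doses. Smaller differences were those of the basic helix-loop-helix factor ATMYC1 (1.38, adjusted p = 0.023), the protein phosphatase PIA1 (0.98, adjusted p = 0.047) and the chloroplast calcium sensor CaS (0.96, adjusted p = 0.0429). ATMYC1 was near the floor in ckh2-1 at 0 ng/ml, PIA1 and CaS lay close to the threshold, and none of these calls held without the replicate number in the fit.

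In a further group the wild type fell and the mutant fell less or was not called. AT2G23540 had signals of 116 and 71.6 in ckh2-1 at 200 ng/ml and 272 and 186 at 0 ng/ml, against 56.3 and 35.3 in wild type at 200 ng/ml and 637 and 401 at 0 ng/ml. The mutant lay between the wild type values at both doses, lower without kinetin and higher with it, and the difference was 1.80 ± 0.22 (adjusted p = 0.000518). AT4G38080 and AT2G22510 also fell in both genotypes and less in ckh2-1, with differences of 2.00 ± 0.40 (adjusted p = 0.0168) and 1.65 ± 0.26 (adjusted p = 0.00363). AT1G74460 (1.88), the DNA damage tolerance gene DRT100 (1.66), ZCF37 (1.51), the sugar transporter gene SWEET13 (1.38), the glucosyltransferase gene UGT71C1 (1.25) and the ATP sulfurylase gene APS4 (0.76) fell in wild type and were not called in ckh2-1. For SWEET13 the wild type signals were 53.2 and 38.3 at 200 ng/ml and 129 and 158 at 0 ng/ml, and the 4 mutant arrays ran from 29.7 to 49.8. SWEET13 (adjusted p = 0.0494) and APS4 (adjusted p = 0.0493) lay close to the threshold, where the last probe set called had 0.0495 and the next one 0.051. UGT71C1 (adjusted p = 0.0461) and DRT100 (adjusted p = 0.0426) were not far from it.

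**Figure D4:**
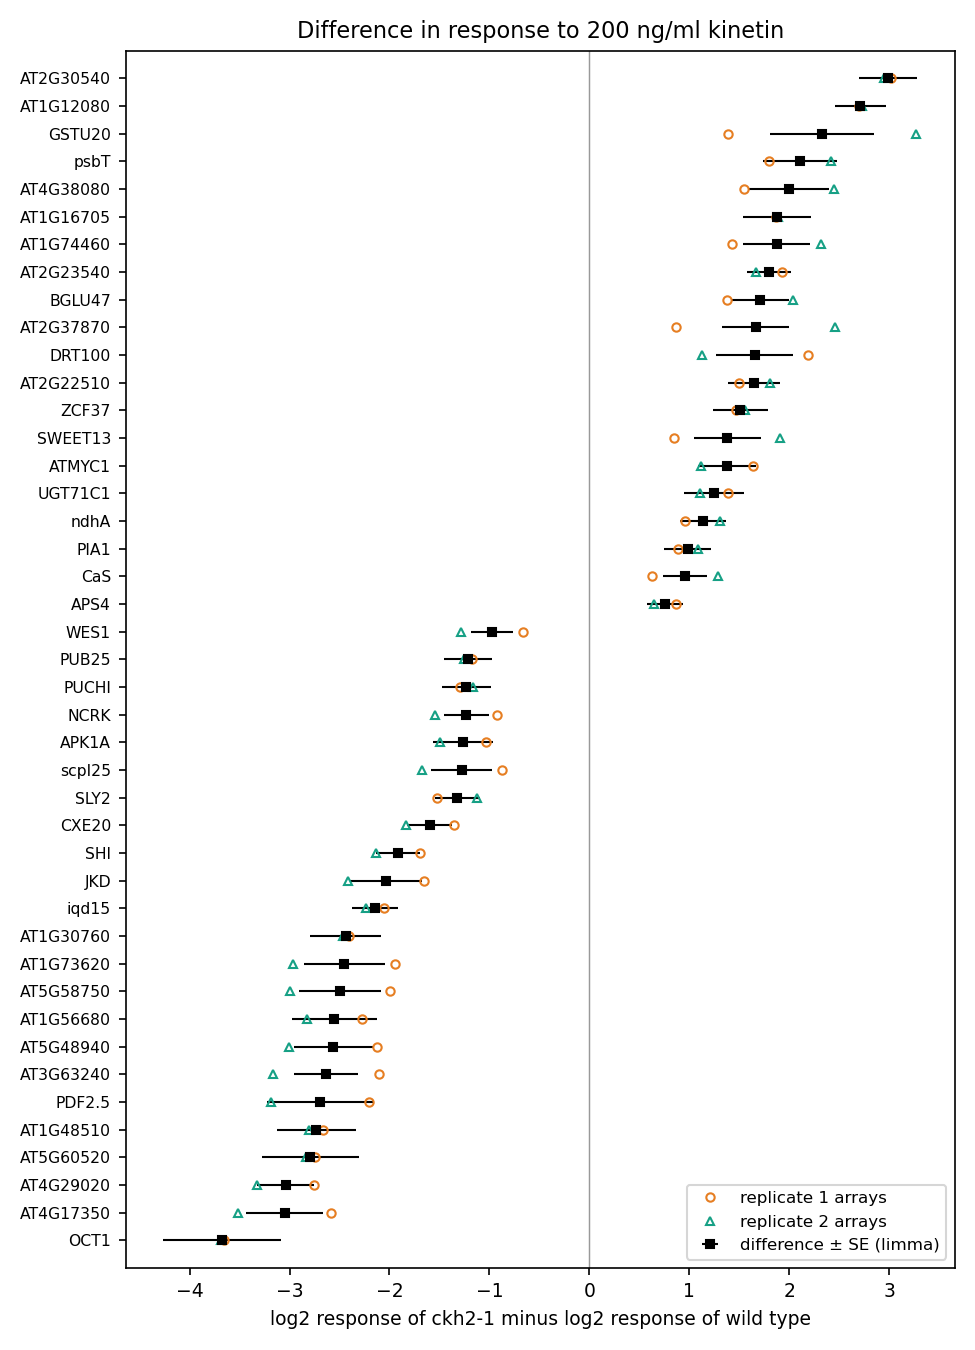
Difference in log2 response to 200 ng/ml kinetin, ckh2-1 minus wild type, for the 43 named genes; squares with bars are the limma estimate ± SE, circles the value from replicate 1 arrays and triangles that from replicate 2 arrays. Every gene has the same sign in both replicate numbers, with GSTU20 (1.39 and 3.27) and AT2G37870 (0.87 and 2.46) among those that differ most between them.

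Of the 43 named genes, 10 were still called without the wild type arrays of replicate number 2: OCT1, AT4G17350, AT4G29020, AT3G63240, AT1G30760, iqd15, SHI, AT2G23540, AT1G12080 and AT2G30540. Without the replicate number in the fit 19 were called, 14 with a lower and 5 with a higher response. AT4G29020, AT4G17350, AT3G63240, iqd15, SHI, AT1G12080 and AT2G30540 passed under every alternative that was run. SWEET13 and UGT71C1 passed under none of theirs. The fold changes are of log2 signal plus 27.39, which understates the change of dim genes.

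The few tested genes of the cytokinin pathway gave no call in this comparison, where 1.74% of all probe sets were called. ARR15, a type-A response regulator, had signals of 223 and 180 in ckh2-1 at 200 ng/ml and 25.0 and 30.2 at 0 ng/ml, against 254 and 94.4 in wild type at 200 ng/ml and 24.9 and 24.7 at 0 ng/ml. It was clearly brighter with kinetin on all arrays of both genotypes, and its difference was 0.22, with a 95% interval from -0.71 to 1.15 (adjusted p = 0.893), so that a difference of either sign up to about that size was not detectable. Of 10 type-A entries it was the only one tested, and RR16 was too dim. The cytokinin glucosyltransferase genes UGT76C1 and UGT76C2 differed by 0.01 and -0.33 (adjusted p = 0.997 and 0.727). The list of receptors, phosphotransfer proteins and type-B regulators had no tested member.

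Auxin response genes had lower responses in ckh2-1 where they were called. Of 20 entries in this list only 7 had a probe set in the name table, and the list was chosen with earlier results of these data known. Of these 7, all tested, 2 were lower (28.6%, against 1.15% of all probe sets) and 0 higher. The median difference was -0.68, against 0.0021 over all. These values cover the 7 and not auxin response genes at large. PUCHI, an AP2/ERF factor of lateral root formation, had signals of 50.9 and 44.1 in ckh2-1 at 200 ng/ml and 326 and 287 at 0 ng/ml, against 285 and 243 in wild type at 200 ng/ml and 545 and 504 at 0 ng/ml. Both genotypes showed a fall, deeper in the mutant, with a difference of -1.23 ± 0.24 (adjusted p = 0.0153). WES1, which encodes a GH3 enzyme that conjugates auxin to amino acids, had signals of 2542 and 1915 in ckh2-1 at 200 ng/ml and 6045 and 4565 at 0 ng/ml, against 4323 and 3172 in wild type at 200 ng/ml and 6466 and 3087 at 0 ng/ml. Its wild type arrays overlapped between doses, and its difference was -0.97 ± 0.21 (adjusted p = 0.0293). Both calls were lost without the replicate number in the fit (adjusted p = 0.215 for PUCHI and 1 for WES1) and without the wild type arrays of number 2 (adjusted p = 0.122 and 0.333). LBD16 and LBD29, factors of lateral root initiation, and GH3.1 fell in ckh2-1 as well. LBD16 was also called as fallen in wild type (-1.17), where LBD29 and GH3.1 changed by -0.75 and -0.82 with no call. The differences in response of LBD16, LBD29 and GH3.1, -0.49, -0.68 and -0.77, did not pass (adjusted p = 0.526, 0.641 and 0.542). IAA29 (-0.37) and GH3.3 (0.27) did not pass either.

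Of 25 entries for embryo, seed and stem cell factors, only BBM and EEL were tested and neither passed. BBM (BABY BOOM), an AP2 factor of embryo development, had signals of 3.94 and 3.38 in ckh2-1 at 200 ng/ml and 215 and 177 at 0 ng/ml, against 53.6 and 60.8 in wild type at 200 ng/ml and 274 and 149 at 0 ng/ml. It fell in both genotypes, to the floor in ckh2-1, and its difference of -1.39 ± 0.40 had an adjusted p of 0.108. EEL, a bZIP factor of seeds, differed by -1.14 ± 0.38 (adjusted p = 0.176). Of 18 entries in the cell division list 3 were tested. The kinases AUR1 and AUR2 differed by -0.16 and -0.10 and PRL, which encodes a subunit of the DNA replication helicase, by -0.90 (adjusted p = 0.0991).

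Cell wall lists gave 0 calls, where 1.74% of all probe sets were called. With so few of their probe sets tested, this says nothing about cell wall genes at large. Of 19 secondary wall entries 4 were tested, IRX15, IRX15-L, GUT2 and TBL34, which act in xylan formation. All 4 rose in ckh2-1, where 11.7% of all probe sets did, and 3 of them rose in wild type, where 5.65% did. The differences in response of the 4 ran from -0.11 to 0.89 with a median of 0.68. The 17 expansins and xyloglucan endotransglucosylases, which loosen cell walls, ran from -0.91 for EXPA8 to 1.61 for EXLB1 with a median of 0.06. EXLB1 missed the threshold narrowly (adjusted p = 0.0523), with signals of 41.6 and 23.7 in ckh2-1 at 200 ng/ml and 39.3 and 25.5 at 0 ng/ml, against 14.7 and 29.8 in wild type at 200 ng/ml and 166 and 88.7 at 0 ng/ml. The vacuolar processing enzymes ALPHA-VPE and GAMMA-VPE differed by -1.36 and 0.66 (adjusted p = 0.304 and 0.0755). The 2 glutaredoxins named by symbol, GRXC1 and GRXC2, and the iron deficiency gene AT1G47400 differed by 0.37, 0.32 and 0.12. Glutaredoxin genes known here only by a locus tag were not in that list, so the 2 do not speak for the family.

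Genes encoded in the plastid genome leaned toward a higher response in ckh2-1, and few passed the test singly. Of 68 tested, 22 rose in ckh2-1 (32.4%, against 11.7% of all probe sets) and 0 fell, while in wild type 1 rose and 3 fell. The difference was above 0 for all but 1 of the 68, petN, with a median of 0.61, against 0.0021 over all probe sets. Below 0 were 9 of the 68 on replicate number 1 alone, 3 on number 2 alone and 3 after quantile normalization. With 1 array left out up to 8 were below 0. Singly, 2 passed the test with a higher response (2.94%, against 0.588% of all). psbT, which encodes a small subunit of photosystem II, had signals of 292 and 400 in ckh2-1 at 200 ng/ml and 189 and 139 at 0 ng/ml, against 78.4 and 94.3 in wild type at 200 ng/ml and 222 and 226 at 0 ng/ml. It rose in ckh2-1, fell in wild type and differed by 2.11 ± 0.37 (adjusted p = 0.00703). ndhA, which encodes a subunit of the chloroplast NDH complex, had signals of 683 and 675 in ckh2-1 at 200 ng/ml and 410 and 448 at 0 ng/ml, against 378 and 317 in wild type at 200 ng/ml and 457 and 551 at 0 ng/ml, and differed by 1.13 ± 0.23 (adjusted p = 0.0188).

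The 68 transcripts are made in 1 compartment and can move together, so they are not 68 separate observations. Together they took 0.696% and 0.863% of all signal in ckh2-1 at 200 ng/ml and 0.54% and 0.607% at 0 ng/ml, against 0.508% and 0.483% in wild type at 200 ng/ml and 0.524% and 0.565% at 0 ng/ml. The ckh2-1 arrays with kinetin were the highest of these 8. In ckh1-1 the share was 0.535% and 0.678% at 200 ng/ml and 0.395% and 0.463% at 0 ng/ml, and in wild type with trichostatin A and no kinetin it was 0.802% and 0.838%. The median difference was 0.464 in replicate number 1 and 0.803 in number 2, ran from 0.449 to 0.816 with 1 array left out, and was 0.6 after quantile normalization. Of the nuclear photosystem and antenna genes 5 of 7 rose in ckh2-1 and 2 of 7 in wild type, where 11.7% and 5.65% of all probe sets rose. The median difference in response was 0.42 and 0 were called, where 1.74% of all were. PORB, an enzyme gene of chlorophyll synthesis, differed by 0.52 (adjusted p = 0.339). The 12 tested mitochondrial probe sets had a median difference of 0.26 and 0 calls. With a share of 1.74% over all, 0 calls among 7 or 12 probe sets say little. The call of psbT was lost without the wild type arrays of number 2 (adjusted p = 0.0813), and that of ndhA there (adjusted p = 0.284) and without the replicate number in the fit (adjusted p = 0.313).

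**Figure D5:**
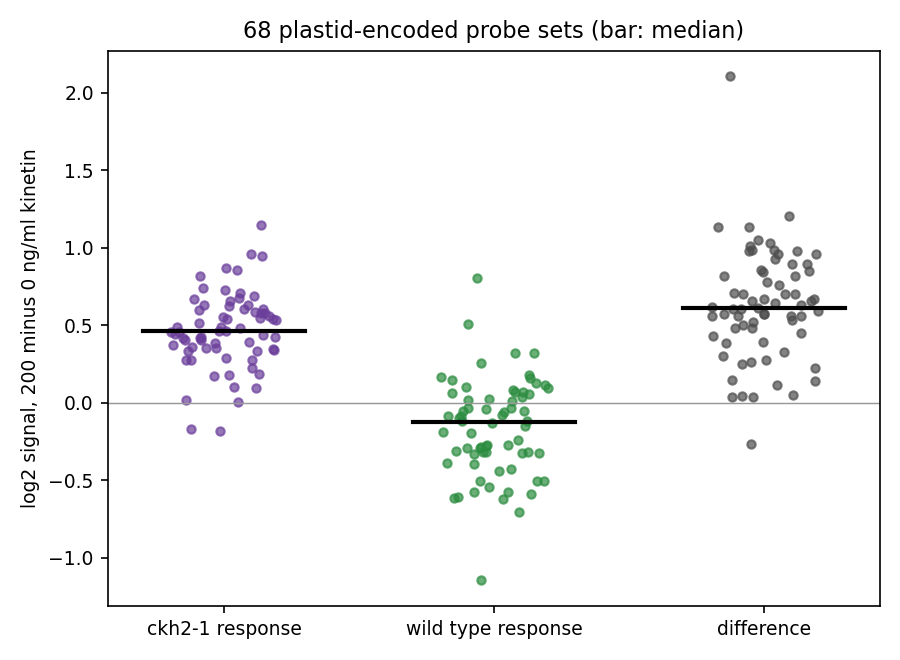
Response to 200 ng/ml kinetin of 68 plastid-encoded probe sets in ckh2-1 (left), in wild type (middle) and as the difference ckh2-1 minus wild type (right), on the log2 scale, with bars at the medians of 0.46, -0.13 and 0.61. As the mean over both replicate numbers, the difference is above 0 for all but petN, and psbT is the highest point on the right.

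At 25 ng/ml kinetin the genotypes were measured on 4 arrays whose values do not enter the high-dose contrast, although the fit took its filter, replicate term and spread from all arrays. Of all probe sets, 7.92% were called between the genotypes there. Of the 178 probe sets with a lower response, 30 were lower in ckh2-1 than in wild type at 25 ng/ml (16.9%, against 3.41% of all) and 14 were higher (7.87%, against 4.51%), with a median difference of -0.16. Of the 91 with a higher response, 17 were lower at 25 ng/ml (18.7%) and 10 higher (11%), with a median of -0.07. At 200 ng/ml, on the arrays that chose the lists, the corresponding medians were -1.43 and 0.62. The median difference in response, ckh2-1 minus wild type, was -0.36 at 25 ng/ml and -1.57 at 200 ng/ml for the lower list, and 0.59 and 1.37 for the higher list, and both doses share the arrays at 0 ng/ml. AT4G17350 had signals of 1185 and 1151, 1037 and 837, and 59.7 and 62.5 in ckh2-1 at 0, 25 and 200 ng/ml, and JKD had 146 and 181, 105 and 156, and 6.70 and 5.98. In both, the mutant arrays at 25 ng/ml lay close to those at 0 ng/ml. The difference in response to 25 ng/ml, which shares the arrays without kinetin, passed for 1 probe set (0.00646%), and 888 (5.74%) had an unadjusted p below 0.05, against 1994 (12.9%) at 200 ng/ml. That probe set has no gene in the name table, and it is mentioned only because of this call. Its response was higher in ckh2-1 by 1.58 at 25 ng/ml (adjusted p = 0.0477) and by 2.40 at 200 ng/ml (adjusted p = 7.82e-05). The call at 25 ng/ml was lost, leaving 0, without the replicate number in the fit, after rescaling, without a filter, with a smaller pseudocount and with any 1 array of that comparison left out.

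The arrays of the mutant ckh1-1 do not enter the contrast either, though like all 20 arrays they enter the filter, the replicate term and the estimate of the spread. The median response of the 178 probe sets was -2.48 in ckh1-1, -2.16 in ckh2-1 and -0.72 in wild type, and 170 of them (95.5%) were negative in ckh1-1, against 57.8% of all. For the 91 the medians were 0.87 in ckh1-1, 1.15 in ckh2-1 and -0.20 in wild type, and 13 (14.3%) were negative in ckh1-1. AT4G29020 had signals of 75.8 and 75.1 in ckh1-1 at 200 ng/ml and 5048 and 4295 at 0 ng/ml, and JKD had 6.81 and 3.46 at 200 ng/ml and 178 and 149 at 0 ng/ml. AT2G23540 went another way in ckh1-1, with 372 and 231 at 200 ng/ml and 154 and 140 at 0 ng/ml. It was not the only named gene to do so. AT4G38080 changed by 1.15 in ckh1-1 and by -0.94 in ckh2-1, and DRT100 by -1.33 and by 0.68, the last with no call. All 23 named genes with a lower response were negative in ckh1-1.

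Responses of ckh2-1 and wild type were also taken over probe sets chosen on the ckh1-1 arrays alone. This choice favours genes that respond in a mutant and leaves out those that respond mainly in wild type, such as OCT1. It is thus no neutral measure of response size, and a smaller median in wild type may come from the choice. For the 739 that lay more than 1 log2 unit lower at 200 ng/ml in ckh1-1, the median response was -1.34 in ckh2-1 and -0.725 in wild type, and 143 of them had a lower and 1 a higher response in ckh2-1, where 1.15% and 0.588% of all probe sets had. Their median in ckh2-1 was -1.35 in replicate number 1 and -1.3 in number 2, and in wild type it was -0.97 in number 1 and -0.457 in number 2. For the 845 that lay more than 1 higher in ckh1-1, the medians were 0.956 in ckh2-1 and 0.725 in wild type, and 42 had a higher and 5 a lower response in ckh2-1, where 0.588% and 1.15% of all had. In replicate number 1 these medians were 0.974 in ckh2-1 and 0.921 in wild type, and in number 2 they were 0.954 in ckh2-1 and 0.543 in wild type. Over these probe sets the gap between the genotypes was wider on the falling than on the rising side in both replicate numbers, and wider in number 2 than in number 1.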

How the data were processed

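Expression was measured on 20 Affymetrix arrays. The authors deposited linear MAS5 signal intensities for 22810 probe sets, per the submitters' processing notes; no source used here gives the MAS5 version or its scaling target. Every array of replicate number 1 had a trimmed mean of 310.9 (2% trimmed) and every array of number 2 one of 236.9.

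Control probe sets (64) were removed. Values were analysed as log2(signal + 27.39), with 0.1 of the median trimmed mean as pseudocount. A probe set was tested if a group mean exceeded the 40th percentile (6.553) in at least 1 of 10 groups, which left out 7277. limma 3.58.1 in R 4.3.3 (lmFit, eBayes with trend) fitted 10 group means and the replicate number over all arrays, with 9 residual degrees of freedom and a median of 5.95 prior ones. Calls are at an adjusted p below 0.05 (Benjamini-Hochberg, per comparison). The difference between responses is an interaction contrast of this fit, with a median SE of 0.239, and the number of arrays limits the precision.

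The replicate number was in the fit because the difference was taken within it. Deviations of same-numbered arrays correlated with r from 0.255 to 0.387 for 5 of 6 pairs of groups and 0.0594 for the wild type groups, and after the scaling was removed with r from 0.233 to 0.344 and 0.0315. Since 1 pair stayed under 0.1, the numbers were not taken as shown to pair the samples, and counts without the term are given.

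The text names the 12 genes with the largest differences in each direction among called probe sets of 1 gene with the same sign in both replicate numbers and a group mean signal above the median of 115, and called members of 24 gene lists, of which 9 had no tested member. Other genes were chosen after their values were seen, because they carry a symbol. The comparison and the lists were chosen with earlier results of these data known. Of the probe sets, 13513 map to 1 gene, 503 to several and 8730 to none; the plastid list was taken from the RefSeq names table. Class III peroxidases, GDSL lipases and lipid transfer proteins could not be matched by name. Intervals are 95% limma intervals, unadjusted.

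On simulated data for this comparison with 15469 probe sets, the fit recovered 53 of 100 changes of 1 log2 unit and 94 of 100 of 2, with 4 unchanged probe sets called, and without the replicate number 0 and 46, with 0. The simulation gave every group the same replicate effect and independent normal noise, which favours the fit with the replicate number. It did not hold the weak correlation of the wild type groups, so it cannot show which fit suits these data. Alternatives were the fit without replicate number, quantile normalization, rescaled arrays, no filter and a stricter one, a smaller pseudocount, the 8 arrays alone and each array left out. Leaving out both wild type arrays of a replicate number was chosen after seeing the data.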

Additional observations from a re-analysis of the deposited data

Results flagged for a closer look

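The kinetin response differed between ckh2-1 and wild type, by the test of the difference itself, for 91 probe sets with a higher and 178 with a lower response in ckh2-1. The genes named by size with a lower response were OCT1 (-3.67), AT4G17350 (-3.05), AT4G29020 (-3.04), AT5G60520 (-2.79), AT1G48510 (-2.73), PDF2.5 (-2.69), AT3G63240 (-2.64), AT5G48940 (-2.56), AT1G56680 (-2.55), AT5G58750 (-2.49), AT1G73620 (-2.45) and AT1G30760 (-2.44). Those with a higher response were AT2G30540 (2.99), AT1G12080 (2.71), GSTU20 (2.33), psbT (2.11), AT4G38080 (2.00), AT1G16705 (1.88), AT1G74460 (1.88), AT2G23540 (1.80), BGLU47 (1.71), AT2G37870 (1.66), DRT100 (1.66) and AT2G22510 (1.65). Members of the gene lists with such a difference were PUCHI (-1.23), WES1 (-0.97) and ndhA (1.13). At 25 ng/ml the test of the difference passed for 1 probe set without a gene in the name table, with a higher response in ckh2-1 (1.58), a call lost under most alternatives and with any 1 array left out.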

How the results depend on the processing

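The fit without the replicate block called 56 probe sets in the difference between responses (7 higher and 49 lower, 12.5% higher, against 33.8% with the block), 1280 in the ckh2-1 response, 474 in the wild type response, 650 between genotypes at 200 ng/ml, 370 at 0 ng/ml, 311 at 25 ng/ml and 0 in the difference at 25 ng/ml. That fit left the offset in scale between the replicate numbers in the spread. Arrays rescaled to a common trimmed mean, without the block, gave 206 (67 higher and 139 lower, 32.5% higher), of which 200 were among the 269. Quantile normalization gave 260, of which 241 were among the 269. No filter gave 199, the smaller pseudocount 282, the stricter filter 260 and the 8 arrays alone 184. The single call at 25 ng/ml was lost, with a count of 0, after rescaling, without a filter and with the smaller pseudocount.

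With 1 array left out, its group's remaining array is assumed to vary like the other groups. The total then ran from 103 (without ckh2-1 at 0 ng/ml, replicate 2) to 303 (without wild type at 0 ng/ml, replicate 1), higher calls from 25 to 102 and lower calls from 78 to 205. Totals of 126 and 135 came without replicate 2 of wild type at 0 and at 200 ng/ml, 124 and 168 without replicates 1 and 2 of ckh2-1 at 200 ng/ml, and 169 without replicate 1 of ckh2-1 at 0 ng/ml. The ckh2-1 response ran from 2125 to 2532 calls, the wild type response from 729 to 1577, genotypes at 200 ng/ml from 989 to 1339, at 0 ng/ml from 586 to 849 and at 25 ng/ml from 517 to 1263, and the difference at 25 ng/ml stayed at 0. Without both wild type arrays of number 2 the total was 45 (13 higher, 32 lower) and without those of number 1 281, with 403 calls in the wild type response. The cause of these changes was not tested. No named gene reversed its sign under any alternative run. The call of OCT1 was lost with the smaller pseudocount (adjusted p = 0.0621).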
